A study of Mus musculus with 16 samples.

Results

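Elane, Mpo, Prtn3, Ctsg and Ms4a3 are 5 of the 35869 genes in the expression table of this series, and they were chosen by symbol because their levels were higher in microglia that had not taken up amyloid-β 1-42 (Aβ42) than in microglia that had. The differences between these sorts therefore describe how the genes were chosen, and they are given below without a test. Elane encodes neutrophil elastase, Prtn3 proteinase 3 and Ctsg cathepsin G, which are serine proteases. Mpo encodes myeloperoxidase, the heme enzyme that makes hypochlorous acid, and Ms4a3 encodes a membrane protein with several spans that marks granulocyte and monocyte progenitors. The working name for the group, primary granule proteases, fits Elane, Prtn3 and Ctsg, whereas Mpo is a peroxidase and Ms4a3 is not an enzyme.

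Primary, or azurophil, granules are the first granules that a maturing neutrophil makes. Their proteases and myeloperoxidase are transcribed at the promyelocyte stage in bone marrow and are then stored, so mature neutrophils hold the proteins but little of the mRNA. The mRNAs are thus known as marks of granulocyte precursors, and none of the 5 is a usual marker of microglia, the resident macrophages of the brain. The genes of secondary granules, such as Ltf and Camp, follow at the next stages of maturation.

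The samples were 16 libraries of polyA RNA from microglia of WT C57/Bl6 male mice, and no group carried a transgene or other altered allele. Young mice were aged 2 months and old mice 18 months, and a figure legend of the study describes each replicate as a pool of 3 mice, while its methods text speaks of single mice. Brain cells of each pool were incubated with 2.5 μM fluorescent fibrillar Aβ42 for 2 h and sorted as live CD45int CD11b+ cells into an Aβ42+ and an Aβ42- fraction, so that the 4 young pools and the 4 old pools each gave 1 library per sort. Among the sample labels, those of Aβ42- libraries omit the treatment, but the protocol given with them covers all libraries. The values are transcripts per 1000000 (TPM), a level per transcript length that sums to the same total in each library, so the depth of a library is unknown and no counting interval can be given. In bulk RNA, fewer cells of a type and less RNA per cell cannot be told apart.

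The labelled cell type was checked against 9 microglia markers. Tmem119 was at 52.2 TPM or more and P2ry12, a purine receptor of microglial processes, at 38.3 TPM or more in all 16 libraries, and the 9 markers summed to 2542 to 2874 TPM in Aβ42+ and 2328 to 2401 TPM in Aβ42- libraries of young mice and to 1436 to 2203 TPM and 988 to 1792 TPM in those of old mice. Libraries also differed in a low level shared by genes with no known role in microglia. This background level, a trimmed mean of the TPM of odorant and pheromone receptor genes, was 0.78 to 6.88 TPM in young Aβ42+, 0.55 to 5.46 in young Aβ42-, 1.27 to 11.6 in old Aβ42+ and 0.33 to 2.88 in old Aβ42- libraries, lowest in pool 1 and highest in pool 3 of each group. The lowest value of a granule gene was 3.75 TPM, for Ctsg in Aβ42+ cells of young pool 2, where the background level was 3.39 TPM.

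The genes lie on 4 chromosomes of the mm10 genome. Prtn3 (chr10:79879667-79883174, plus strand, 5 exons) and Elane (chr10:79886312-79888216, plus strand, 5 exons) are neighbours with 3137 bases between them, and Cfd, which encodes the serine protease complement factor D, follows after 2636 bases. Mpo (chr11:87793784-87804412, plus strand, 14 exons) lies 2015 bases before Lpo, the gene of lactoperoxidase. Ctsg (chr14:56099885-56102574, minus strand, 5 exons) belongs to a cluster of mast cell protease and granzyme genes, and Ms4a3 (chr19:11629499-11640851, minus strand, 7 exons) to the Ms4a cluster. Apart from Mpo, the longest exact stretch that a member shared with any other gene was 20 to 21 bases, against reads of 85 bases, and Elane and Prtn3 shared 17 bases. Mpo shared 208 bases with Gm11505, an antisense gene that overlaps it and has no entry in the expression table. Whether the reads were counted by strand is not given in the sources used here, so reads of this stretch may come from either gene.

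Promoter sequence is shown because the 5 genes moved together and their 250 bases before the start could be compared. The motifs were chosen with the sequences known, and they are the cores AGGAAGT, bound by the Ets factor PU.1, AACGG, bound by MYB, TTNNGNAA, bound by C/EBP factors, and TGTGGT, bound by RUNX factors, each searched on both strands. Capitals mark the matches in the following stretches of the GRCm38.p6 reference (mm10), each written on the strand of its gene from 5′ to 3′. The stretches are chr10:79886192-79886311 (plus strand) for Elane, chr10:79879547-79879666 (plus) for Prtn3, chr11:87793544-87793613 (plus) for Mpo, chr14:56102745-56102814 (minus) for Ctsg and chr19:11640892-11640971 (minus) for Ms4a3.
Elane: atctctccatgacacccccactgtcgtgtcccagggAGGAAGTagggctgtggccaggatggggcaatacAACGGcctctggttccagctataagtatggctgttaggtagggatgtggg
Prtn3: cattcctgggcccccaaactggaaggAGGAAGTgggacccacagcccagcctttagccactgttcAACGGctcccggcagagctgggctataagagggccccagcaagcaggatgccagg
Mpo: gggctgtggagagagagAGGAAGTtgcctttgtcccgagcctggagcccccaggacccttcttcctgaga
Ctsg: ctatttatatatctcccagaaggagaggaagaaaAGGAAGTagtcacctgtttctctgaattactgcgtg
Ms4a3: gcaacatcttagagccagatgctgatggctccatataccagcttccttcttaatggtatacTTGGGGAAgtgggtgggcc

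AGGAAGT was present in 4 of the 5 promoters, all except that of Ms4a3, and in 7.69% of 32851 promoters of the same length. The match began 84 bases before the start in Elane, 94 in Prtn3, 206 in Ctsg and 223 in Mpo. AACGG followed in Elane and Prtn3 only, with 27 and 32 bases between the motifs. Both motifs occurred in 1.07% of all promoters, and AACGG in 14.5%. The C/EBP core was found in Ms4a3 alone, 59 bases before the start, against 36.8% of all promoters, and the RUNX core in Ctsg alone (79 bases before the start, on the opposite strand, outside the printed stretch), against 14.0%. A match describes the letters of these windows and says nothing of binding in these cells.

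Elane was at 16.2, 27.1, 38.4 and 22.7 TPM in Aβ42+ cells of young pools 1 to 4 and at 524, 324, 448 and 402 TPM in Aβ42- cells of the same pools. In old pools 1 to 4 it was at 296, 93.8, 30.6 and 83.2 TPM in Aβ42+ and at 698, 779, 483 and 667 TPM in Aβ42- cells. Each Aβ42- library was above each Aβ42+ library, and old pool 1 had by far the highest Aβ42+ value. Mpo was at 24.1, 28.4, 39.7 and 24.5 TPM in young Aβ42+ and at 534, 358, 442 and 402 TPM in young Aβ42- cells, pool by pool. In old mice it was at 219, 89.1, 51.0 and 56.5 TPM in Aβ42+ and at 699, 819, 528 and 688 TPM in Aβ42- cells. The peroxidase thus had nearly the levels of the elastase in each group, and again no library of one sort overlapped the other.

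Prtn3, the neighbour of Elane, was at 29.5, 12.8, 45.8 and 13.1 TPM in young Aβ42+ and at 411, 220, 355 and 348 TPM in young Aβ42- cells. In old mice it was at 188, 93.2, 40.2 and 69.4 TPM in Aβ42+ and at 654, 708, 402 and 583 TPM in Aβ42- cells. Its sorts did not overlap, but old pool 1 in Aβ42+ cells came close to young pool 2 in Aβ42- cells. Ctsg was at 10.9, 3.75, 12.3 and 13.9 TPM in young Aβ42+ and at 298, 142, 180 and 163 TPM in young Aβ42- cells. In old mice it was at 77.8, 30.3, 19.6 and 22.1 TPM in Aβ42+ and at 519, 559, 263 and 437 TPM in Aβ42- cells. Cathepsin G was lower than the other 2 proteases in every Aβ42- library, and its sorts did not overlap either.

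Ms4a3 was at 7.85, 6.19, 12.2 and 12.6 TPM in young Aβ42+ and at 161, 99.6, 103 and 100 TPM in young Aβ42- cells. In old mice it was at 75.9, 22.8, 23.6 and 24.4 TPM in Aβ42+ and at 380, 413, 177 and 310 TPM in Aβ42- cells. This gene separated all 4 groups, since no library of one group lay within the range of another. For all 5 genes the order of the groups by mean was young Aβ42+, old Aβ42+, young Aβ42- and old Aβ42-. All 8 Aβ42- libraries were above all 8 Aβ42+ libraries for all 5 members, as they were for 0.467% of the 34492 genes at 1 TPM or more in 4 libraries, and the choice of the members fixes this count.

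**Figure D1:**
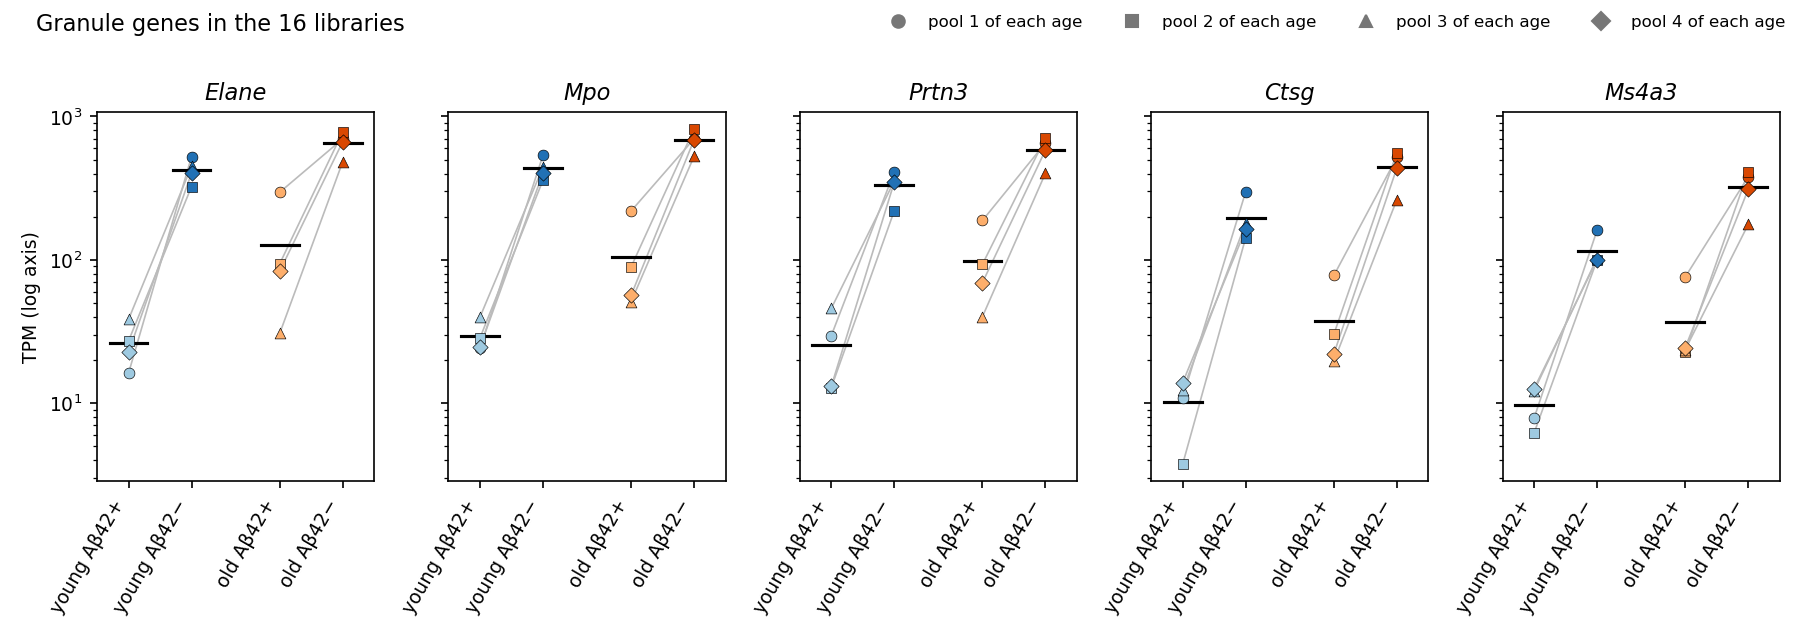
TPM (log axis) of the 5 genes in each of the 16 libraries, with a marker shape for each pool number, grey lines joining the sorts of 1 pool and black bars at the group means. The Aβ42- libraries lie above the Aβ42+ libraries in every panel, and old pool 1 has the highest Aβ42+ value of each gene.

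Together the 5 genes summed to 100.5 ± 32.2 TPM in young Aβ42+, 1504 ± 325 in young Aβ42-, 402 ± 311 in old Aβ42+ and 2691 ± 609 in old Aβ42- libraries (SD, n = 4 each). Relative to the group mean of Aβ42+ cells, the mean in young Aβ42- cells was 16.3-fold for Elane, 14.9-fold for Mpo, 13.2-fold for Prtn3, 19.2-fold for Ctsg and 11.9-fold for Ms4a3. In old mice the same ratios were 5.22, 6.58, 6.0, 11.9 and 8.72. These values depend on Aβ42+ cells of old pool 1, and without that library they were 9.49, 10.4, 8.68, 18.5 and 13.5. With all libraries every ratio was smaller in old than in young mice, but without this one the ratio of Ms4a3 was larger.

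Within single pools, the Aβ42- sort exceeded the Aβ42+ sort of all 8 pools for each of the 5 genes, which held for 4.78% of genes. On the log2(TPM + 1) scale, which is used for all log2 differences here and understates those of genes with low TPM, the mean within-pool difference in young mice was 4.02 ± 0.67 for Elane, 3.86 ± 0.43 for Mpo, 3.83 ± 0.70 for Prtn3, 4.20 ± 0.70 for Ctsg and 3.47 ± 0.64 for Ms4a3 (SD, n = 4 pools). In old mice it was 2.80 ± 1.13, 2.95 ± 0.87, 2.76 ± 0.67, 3.70 ± 0.70 and 3.22 ± 0.80 in the same order. The weakest separation of each gene was in old pool 1, from 2.36-fold for Elane over 3.19-fold for Mpo, 3.48-fold for Prtn3 and 5.0-fold for Ms4a3 to 6.67-fold for Ctsg. The widest on the log2 scale was 4.94, for Elane in young pool 1, followed by 4.91 for Ctsg in young pool 2, where the Aβ42+ value of 3.75 TPM was close to the background level of 3.39 TPM.

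**Figure D2:**
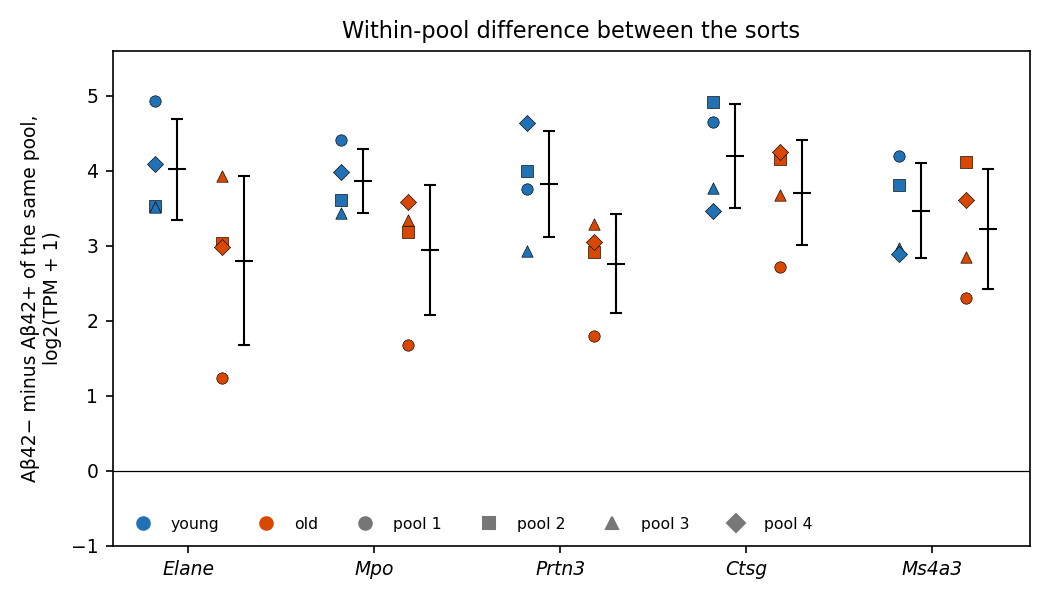
Difference of log2(TPM + 1) between the Aβ42- and the Aβ42+ sort of the same pool for each gene, with young pools in blue, old pools in orange and a marker shape per pool; bars are the mean ± SD of 4 pools. All points lie above 0, and old pool 1 is the lowest old point of each gene.

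Whether the difference between the sorts changed with age was tested, since the choice of the genes did not use it. The within-pool log2 difference was smaller in old pools by 1.22 for Elane, 1.06 for Prtn3, 0.92 for Mpo, 0.49 for Ctsg and 0.24 for Ms4a3. None of the 5 differences passed the exact two-sided permutation test of 4 old against 4 young pools (p = 0.0857, 0.0857, 0.0571, 0.343 and 0.571 in that order, smallest possible p = 0.0286). The old and young pools overlapped for all 5 genes, whereas 30.1% of genes had lower values in old pools without overlap. In the interaction term of a limma model of all 16 libraries, 0 of the 5 genes passed the threshold of 0.05 after Benjamini-Hochberg adjustment over all genes (adjusted p = 0.254 to 0.731), with 0.0116% of genes called, and 0 of 5 had an unadjusted p under 0.05, against 20.1% of genes. With the pool as a block, 0 of 5 were called as well (adjusted p = 0.0698 to 0.666), against 36.9% of genes. Over all genes the median interaction was -0.88, and 0.10 with the background level subtracted. The part of the background level in these shares of genes was not tested. The interaction of Ms4a3 turned to 0.17 without old pool 1 in Aβ42+ cells and to 0.02 without old pool 3 in Aβ42- cells, and it was not called in either fit.

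Old Aβ42- microglia had higher means than young Aβ42- microglia for all 5 genes, and the difference was larger for the less abundant members. The authors removed duplicate reads, which limits how many reads a short, abundant transcript can keep. The part of this in the order of the differences was not tested. The ratio of the means was 1.55 for Elane, 1.57 for Mpo, 1.76 for Prtn3, 2.27 for Ctsg and 2.76 for Ms4a3, the least abundant member. In limma's test, Ms4a3 was called with a log2 difference of 1.42 (SE 0.27, adjusted p = 0.0424). The log2 differences were 1.18 (SE 0.28, adjusted p = 0.0579) for Ctsg, 0.82 (SE 0.22, adjusted p = 0.0814) for Prtn3, 0.65 (SE 0.16, adjusted p = 0.0623) for Mpo and 0.63 (SE 0.18, adjusted p = 0.0901) for Elane, which missed the threshold. Thus 1 of 5 members rose, against 1.73% of genes called higher in old Aβ42- cells, and the median log2 difference of all 31982 genes tested was -0.56. This median was 0.06 with the background level subtracted.

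The levels of Ms4a3 in Aβ42- cells did not overlap between the ages, at 99.6 to 161 TPM in young and 177 to 413 TPM in old pools (exact two-sided permutation test, p = 0.0286, the smallest possible). Such a separation with higher values in old pools was found for 5.96% of genes. For the other 4 genes old pool 3 lay below young pool 1 and the exact p was 0.0571. The call for Ms4a3 was lost without young pool 2, 3 or 4 or without old pool 1, 2 or 4 (limma adjusted p = 0.114 to 0.157), and all 5 genes were called without young pool 1 or without old pool 3. With the background level subtracted from each gene, all 5 genes were called as well (adjusted p = 0.0198 to 0.0445), against 6.33% of genes. After median-of-ratios scaling 3 of 5 were called, against 3.52% of genes, and with all 16 libraries in 1 fit 0 of 5. With the replicate number as a block, which no label ties to a pairing of young and old pools, 3 of 5 were called, against 5.61% of genes. The 9 microglia markers moved the other way in the same libraries, with a median log2 difference of -0.94 and 3 of 9 called lower (P2ry12, Olfml3 and Fcrls), against 0.416% of genes, and the part of this in the result was not tested.

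In Aβ42+ microglia the old pools were also higher for all 5 genes, but they scattered widely. The ratio of the old to the young mean was 4.83 for Elane, 3.56 for Mpo, 3.86 for Prtn3, 3.66 for Ctsg and 3.78 for Ms4a3. Without old pool 1, the pool with the highest values, these ratios were 2.65, 2.25, 2.67, 2.34 and 2.43. The log2 differences were 1.85 (SE 0.59), 1.57 (SE 0.42), 1.88 (SE 0.53), 1.67 (SE 0.50) and 1.66 (SE 0.42), and limma called 0 of 5 members (adjusted p = 0.458, 0.416, 0.424, 0.436 and 0.416), while 5 of 5 had an unadjusted p under 0.05 (0.0031 to 0.0114), against 4.70% of genes with higher values in old pools. Only 0.0208% of the 33578 genes tested were called higher in old Aβ42+ cells. Mpo, Ctsg and Ms4a3 did not overlap between the ages (exact permutation p = 0.0286, the smallest possible), as 2.85% of genes, whereas Elane and Prtn3 overlapped (exact p = 0.0571) because old pool 3 lay below young pool 3. These exact tests do not take the background level into account. The lowest old value of Ctsg was 19.6 TPM, in pool 3, where the background level was 11.6 TPM. Its highest young value was 13.9 TPM, in pool 4, where the background level was 2.78 TPM. Without old pool 1 the log2 difference of Ms4a3 was 1.25, and the adjusted p of all 5 genes remained above 0.05 under every alternative run.

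**Figure D3:**
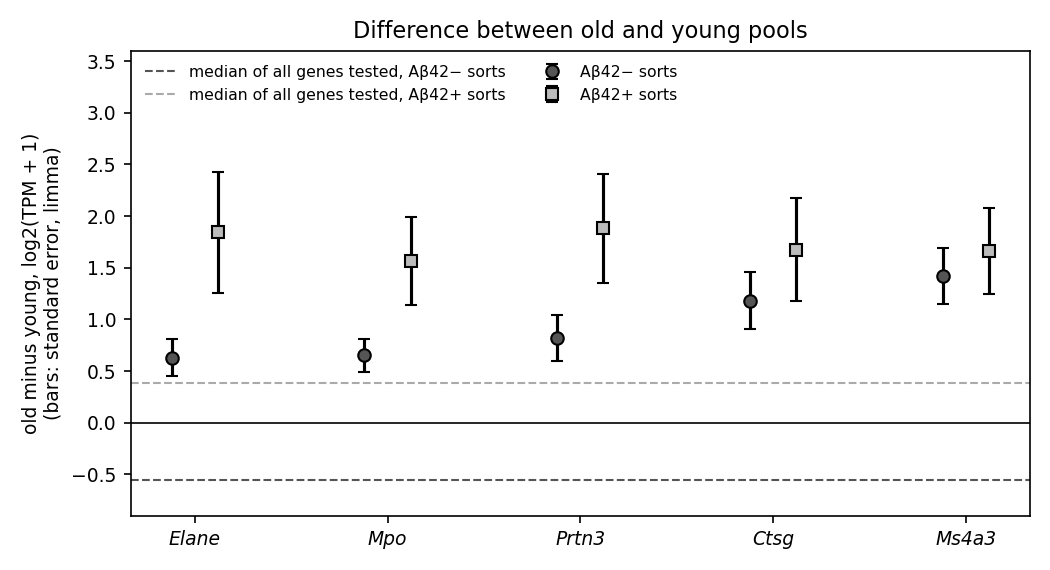
Difference between old and young pools on the log2(TPM + 1) scale for each gene in Aβ42- sorts (circles) and Aβ42+ sorts (squares), with bars for limma's standard error and dashed lines at the median of all genes tested in each sort. The Aβ42- differences run from 0.63 for Elane to 1.42 for Ms4a3, and the Aβ42+ differences of all 5 genes lie between 1.57 and 1.88 with wider bars.

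The members kept a steady order of abundance in Aβ42- cells. Below Mpo and Elane, the order by TPM was Prtn3, Ctsg and Ms4a3 in all 8 Aβ42- libraries. Mpo led in 6 of these libraries and Elane in young pools 3 and 4, where the pair was at 448 and 442 TPM and at 402 TPM both. In Aβ42+ cells the order changed from library to library, with Prtn3 first in young pools 1 and 3 and Ctsg below Ms4a3 in young pool 2 and old pools 3 and 4.

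The shares of the 5-gene sum are given as a description, with no test, and the part of duplicate removal in them was not tested. In Aβ42- cells the shares of Elane and Ms4a3 did not overlap between the ages, and the other 3 did. Elane made up 27.2% to 29.3% of the sum in young and 23.7% to 26.1% in old pools, and Ms4a3 6.71% to 8.71% in young and 9.53% to 12.9% in old pools. Mpo made up 27.7% to 31.3% in young and 23.7% to 28.5% in old pools, Prtn3 19.2% to 24.6% and 21.6% to 22.2%, and Ctsg 11.5% to 15.5% and 14.2% to 17.6%. In Aβ42+ cells the shares of Elane (18.2% to 34.7% in young and 18.6% to 34.5% in old pools) and Ms4a3 (7.90% to 14.5% and 6.93% to 14.3%) overlapped.

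In Aβ42- cells, Elane, Mpo, Prtn3 and Ctsg ranked the 8 pools in the same order, from young pool 2 over young pools 4 and 3, old pool 3, young pool 1 and old pools 4 and 1 to old pool 2. This order includes the difference between the ages, so correlations of log2(TPM + 1) are given within each age, where 4 pools are too few for a test. Over the 10 pairs of the 5 genes in Aβ42- cells, Pearson's r was 0.60 to 0.98 among young and 0.96 or more among old pools. In Aβ42+ cells it was -0.09 to 0.92 among young and 0.83 or more among old pools. The lowest value was that of Elane and Ctsg, and the young Aβ42+ libraries had the lowest 5-gene sums of the 16.

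Other genes of granule formation differed among themselves. Of 9 partners, Serpinb1a, an inhibitor of elastase, proteinase 3 and cathepsin G, was higher in Aβ42- cells of both ages (log2 difference 2.87 in young, 2.19 in old). Slpi, another inhibitor of neutrophil proteases, rose in young mice only by this test (1.20), and Prss57, a further azurophil granule protease, and Cst7, an inhibitor of cathepsins, rose in old mice only (1.85 and 1.74). In limma's test 2 of 9 partners were called higher in young and 3 of 9 in old Aβ42- cells, against 1.43% and 4.74% of all genes, and their median log2 differences of 0.18 and 0.15 stood beside medians of 0.04 and -0.89 for all genes. With the background level subtracted from each gene, the medians of all genes were -0.03 and 0.14. Whether the calls of Slpi, Prss57 and Cst7 differ between the ages was tested in the interaction term, and none was called in the main fit. With the pool as a block, 1 of the 9 partners was called with a larger difference in old mice, against 36.9% of genes called in either direction.

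The other partners did not pass the test at either age. Ctsc, the enzyme that activates the granule proteases, differed by -0.32 in young and -0.42 in old mice, and Srgn, the proteoglycan that holds them in the granule, by 0.18 and 0.08. Lyz2 (0.14 and -0.21), the lysozyme of macrophages and neutrophils, and Cd63 (-0.12 and 0.15), a granule and lysosome membrane protein, were at 825 TPM or more and 137 TPM or more in all libraries. Bpi, a further granule protein, was at 0.11 to 8.68 TPM and thus near the background level. Serpinb1a itself was at 13.9 to 18.4 TPM in young Aβ42+, 109 to 159 in young Aβ42-, 19.5 to 105 in old Aβ42+ and 174 to 303 in old Aβ42- libraries, so its groups were ordered as those of the members. In the old comparison none of the 9 partners was called higher without Aβ42+ pool 2 or 4 or without Aβ42- pool 1, 2 or 4.

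Among 6 transcription factors of granulocytes, Cebpe, which acts at the promyelocyte to myelocyte step, was higher in Aβ42- cells by 2.67 in young and 2.06 in old mice, and Myb, a factor of proliferating progenitors, by 2.37 and 2.54. Gfi1, a repressor needed for neutrophil development, rose in old mice (1.55) and had a difference of 1.22 in young mice. Cebpa (-0.27 and -0.33), Spi1, which encodes PU.1 (-0.06 and 0.05), and Runx1 (-0.22 and 0.02) did not pass the test. Thus 2 of 6 were called higher in young and 3 of 6 in old mice, against 1.43% and 4.74% of all genes, with medians of 0.58 and 0.80. Spi1 and Runx1 were at 123 TPM or more and 31.3 TPM or more in all libraries, and both also act in microglia. Without old Aβ42+ pool 2 or 4 or old Aβ42- pool 1, 2 or 4, 1 of 6 was called in old mice. With the pool as a block, 2 of 6 were called in young mice and 3 of 6 in old mice, against 1.41% and 10.7% of genes.

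With age, Cebpe (0.93) and Serpinb1a (0.95) also rose in Aβ42- cells, as Ms4a3 did, and they were the only called genes of their lists. The share of all genes called higher there was 1.73%. In Aβ42+ cells 0 of the 9 partners and 0 of the 6 factors were called between the ages. Both calls in Aβ42- cells were lost without young pool 2, 3 or 4 or old pool 1, 2 or 4. Cebpe was at 29.2 to 43.4 TPM in young Aβ42+, 200 to 254 in young Aβ42-, 54.3 to 206 in old Aβ42+ and 283 to 530 in old Aβ42- libraries, so that old Aβ42+ and young Aβ42- libraries overlapped slightly.

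The 10 genes whose levels over the 16 libraries were most like the mean of the 5 members, among 13334 genes with a mean of 5 TPM or more, were Ceacam10, Cebpe, Cxcr2, Ltb, Il16, Nfe2, Chst12, Mmp25, Serpinb1a and Ifit1bl2, with Pearson's r of 0.98 to 0.99. These correlations span both sorts and include the difference on which the members were chosen, and they are given as a description. Cxcr2, the chemokine receptor of mature neutrophils, had means of 17.9 TPM in young Aβ42+, 132 in young Aβ42-, 47.7 in old Aβ42+ and 248 in old Aβ42- libraries. Mmp25 encodes a matrix metalloprotease of neutrophils, and Nfe2 a factor of megakaryocytes and erythroid cells. Of the transcription factors with promoter motifs above, Myb had r = 0.94, Cebpa -0.59, Runx1 -0.25 and Spi1 -0.06.

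Markers of maturing and mature neutrophils were abundant in both sorts. The 8 secondary granule genes summed to 2394 to 3038 TPM in young Aβ42+ and 5246 to 6372 TPM in young Aβ42- libraries. In old mice they summed to 2433 to 5703 TPM in Aβ42+ and 5732 to 7600 TPM in Aβ42- libraries. All Aβ42- sums were above those of the 9 microglia markers, which were 988 to 2401 TPM in these libraries. The same held in each old Aβ42+ library, where the microglia markers summed to 1436 to 2203 TPM. It also held in young Aβ42+ pool 3, at 3038 against 2542 TPM. In young Aβ42+ pools 1, 2 and 4 the microglia markers had the higher sum. Of 8 secondary granule genes, 7 rose in Aβ42- cells of young mice and 1 (Fcnb) in old mice, with medians of 1.28 and 0.62. Of 10 mature neutrophil genes, 8 rose in young and 3 (Cxcr2, Mmp9 and Ly6g) in old mice, with medians of 1.81 and 1.25. Of all genes 1.43% were called higher in young and 4.74% in old mice, and their medians were 0.04 and -0.89. These medians of all genes were -0.03 and 0.14 with the background level subtracted. In the interaction term 0 of the 8 and 0 of the 10 genes were called, so these counts do not show a difference between the ages. Fcnb, the ficolin of granulocyte precursors, differed by 3.44 in young and 2.64 in old mice, while Ngp, Camp and Ltf differed by 0.86 to 1.40 in young mice. In young Aβ42+ libraries the mean of Fcnb was 14.1 TPM, and those of Ltf, Camp and Ngp were 337, 399 and 688 TPM. The part of duplicate removal in the smaller differences of these abundant genes was not tested. S100a8, which encodes a calcium-binding protein that is abundant in neutrophils, was at 652 to 840 TPM already in young Aβ42+ libraries, where the members were at 45.8 TPM or less. In old mice 0 of the 8 and 0 or 1 of the 10 genes were called without Aβ42+ pool 2 or 4 or Aβ42- pool 1, 2 or 4. With the pool as a block, 7 of the 10 mature neutrophil genes were called higher, against 10.7% of genes.

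The level of the members relative to these genes is given as a description, since the choice of the members bears on any comparison of the sorts. For each 100 TPM of the secondary granule genes, the 5 members summed to 3.21 to 4.88 TPM in young Aβ42+, 20.5 to 36.8 in young Aβ42-, 5.36 to 15.3 in old Aβ42+ and 28.0 to 51.4 in old Aβ42- libraries. The highest old Aβ42+ value was that of pool 1, and it stayed below the lowest value in Aβ42- cells. Per 100 TPM of the microglia markers, the members summed to 2.78 to 5.84 TPM in young Aβ42+, 49.1 to 82.0 in young Aβ42-, 11.5 to 38.9 in old Aβ42+ and 103 to 332 in old Aβ42- libraries. The microglia markers themselves were not called between the sorts, 0 of 9 at either age, with medians of -0.19 in young and -0.43 in old mice.

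**Figure D4:**
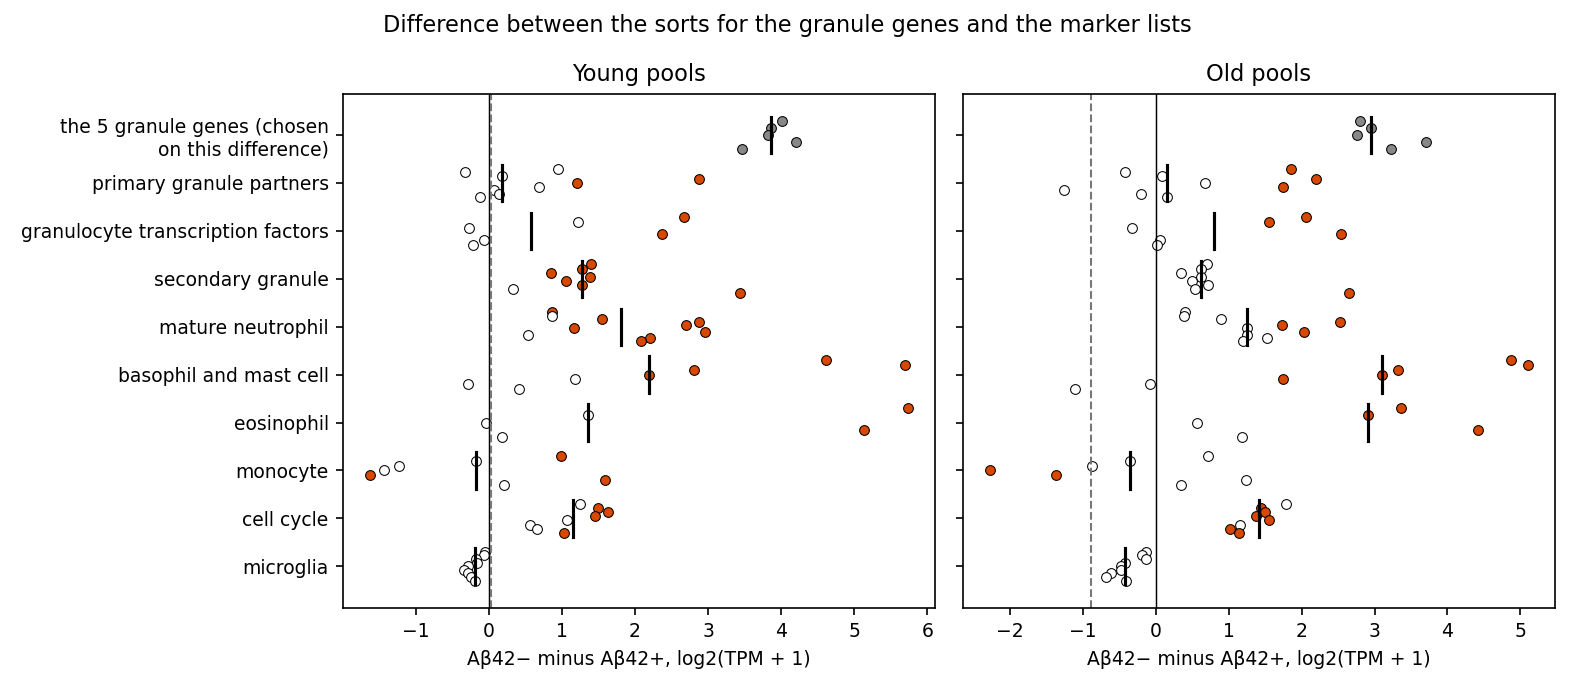
Difference between Aβ42- and Aβ42+ sorts on the log2(TPM + 1) scale in young (left) and old (right) pools, with 1 point for each gene, black bars at the median of a list and a dashed line at the median of all genes tested; orange points were called by limma, white points were not, and the 5 granule genes are grey because they were chosen on this difference. The secondary granule genes have median differences of 1.28 in young and 0.62 in old mice, and the microglia genes of -0.19 and -0.43.

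Genes of other granulocytes differed between the sorts as well. Mcpt8 and Prss34, proteases of basophils, were higher in Aβ42- cells by 4.61 and 5.70 in young and by 4.88 and 5.10 in old mice. Of the basophil and mast cell genes, 4 of 7 rose in young and 5 of 7 in old mice, against 1.43% and 4.74% of all genes. The 7 genes summed to 8.93 to 27.2 TPM in young Aβ42+, 246 to 523 in young Aβ42-, 16.4 to 76.5 in old Aβ42+ and 511 to 742 in old Aβ42- libraries. In old pool 1, where the members were at their highest in Aβ42+ cells, the sum of these genes was at its lowest of the old Aβ42+ libraries. The background level was also lowest there, at 1.27 TPM per gene, against 4.98 to 11.6 TPM in the other old Aβ42+ libraries. Its part in these sums was not tested. With the pool as a block, 2 of 7 were called in young mice, against 1.41% of genes. With 1 library left out, 2 or 3 of 7 were called in young and 3 to 5 of 7 in old mice. Of 5 eosinophil genes, 2 (Prg2 and Ear1) rose in young and 3 in old mice, against the same 1.43% and 4.74% of genes. The addition in old mice was Epx, the peroxidase gene near Mpo (2.91).

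Epx was at 1.71 to 10.2 TPM in young Aβ42+, 8.86 to 20.5 in young Aβ42-, 5.21 to 10.3 in old Aβ42+ and 40.1 to 112 in old Aβ42- libraries. It rose with age in Aβ42- cells (2.24), and so did Fcer1a (1.66), the high-affinity IgE receptor chain of basophils and mast cells. These were the only called genes among the 5 eosinophil and 7 basophil and mast cell genes between the ages, where 1.73% of all genes were called higher in old Aβ42- cells. The part of these cell types in the values of the members was not tested.

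**Figure D5:**
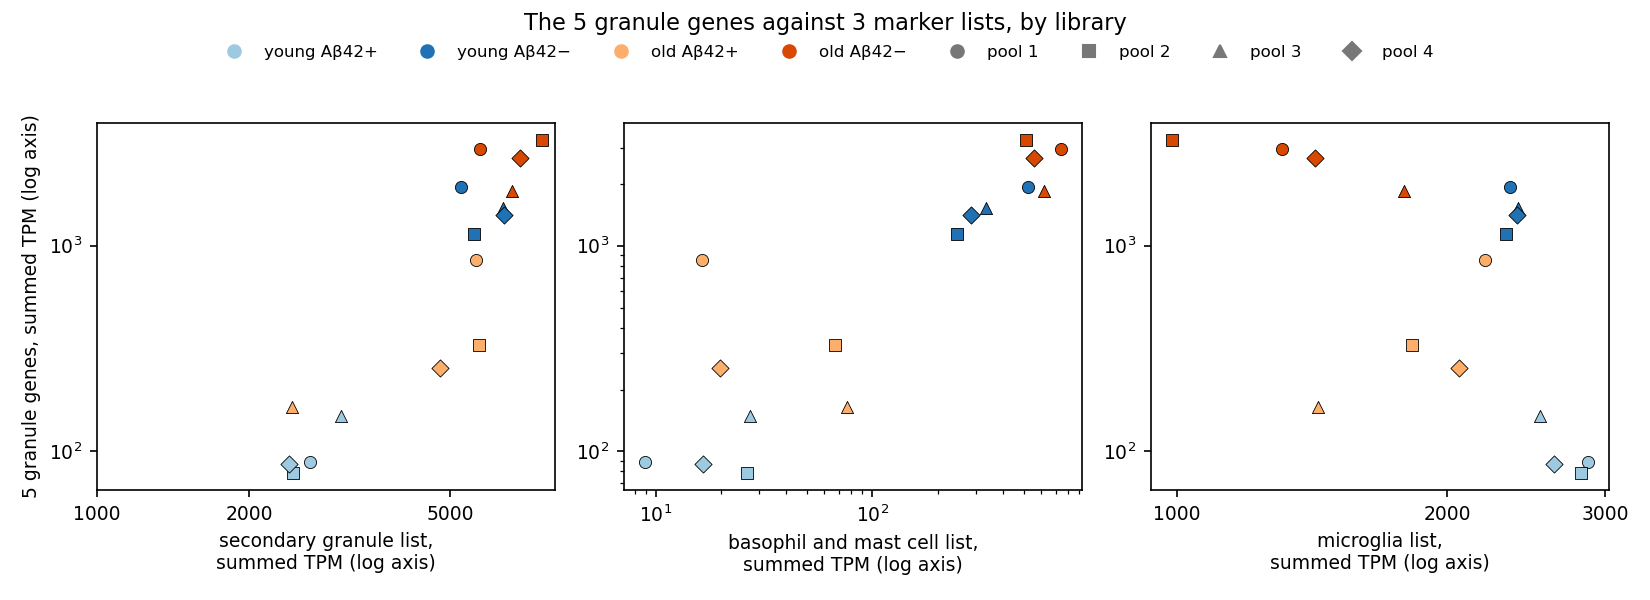
Summed TPM of the 5 granule genes against the summed TPM of 8 secondary granule genes, 7 basophil and mast cell genes and 9 microglia genes (all axes log), with 1 point for each of the 16 libraries, colours for groups and marker shapes for pools. Old pool 1 has 857 TPM of the members in Aβ42+ cells, the highest point of that group, at a secondary granule sum close to that of its Aβ42- library.

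Genes of other cells and states gave mixed results. Of 8 cell cycle genes, 4 rose in Aβ42- cells of young mice and 6 in those of old mice (medians 1.15 and 1.41), and 5 of 8 rose with age in Aβ42- cells, among them Top2a (1.45), a topoisomerase of dividing cells. For this and the lists that follow, 1.43% of all genes were called higher in Aβ42- cells of young and 4.74% in those of old mice. Between the ages 1.73% were called higher in old Aβ42- cells. Of 8 stem and progenitor genes, 0 were called in young and 2 (Kit, 2.21, and Gata2, 2.02) in old mice. Among monocyte genes, Ly6c2 rose and Fn1 fell in young mice, and Vcan and Fn1 fell in old mice, with 0 of the 7 monocyte genes called lower there once the background level was subtracted. Of 6 T and NK cell genes, 3 rose in young (Gzma, Nkg7 and Klrb1c) and 2 in old mice (Gzma and Nkg7), and Gzma fell with age in Aβ42- cells. Mrc1, Pf4 and Ms4a7, of 5 border macrophage genes, fell in Aβ42- cells at both ages, against 0.243% of genes called lower in young and 8.23% in old mice. No gene of the erythroid (8), B precursor (8) and neuron and glia (6) lists was called in either comparison of the sorts. With the pool as a block, 4 of the 8 erythroid genes, all of them globins, rose in young mice, and in old mice 4 of the 8 B precursor genes, 3 of the 8 stem and progenitor genes, 2 of the 6 neuron and glia genes and 1 erythroid gene fell while 1 B precursor and 1 neuron and glia gene rose, where 47.2% of all genes were called lower. Without old Aβ42+ pool 2 or 4 or old Aβ42- pool 1, 2 or 4, 0 of the 8 cell cycle genes were called in old mice, and between the ages in Aβ42- cells 0 list genes were called without young pool 2, 3 or 4 or old pool 1 or 4, and 2 microglia genes alone without old pool 2.

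Relatives of the members did not share one direction. Of 20 paralogues, 4 rose and 4 fell in Aβ42- cells of young mice, against 1.43% and 0.243% of all genes. In old mice 6 rose and 2 fell, against 4.74% and 8.23% of genes, or 8 fell with the pool as a block, against 47.2%. The falls in old mice were thus close to or below the share of all genes. The Ms4a family was split, since Ms4a2, an IgE receptor subunit of mast cells and basophils, rose in old mice (1.75) and Ms4a4b, a gene of lymphocytes, in young mice (2.18), whereas Ms4a6d (-1.01 and -1.55) and Ms4a7 (-2.27 and -2.69), genes of macrophages, fell at both ages. Ms4a6b (-1.04) and Ms4a6c (-1.13) fell in young mice, and Ms4a1 (0.75 and 0.74), the gene of CD20 on B cells, was not called. Among granzymes and mast cell proteases, Gzmb (3.89 and 3.67) and Mcpt8 rose at both ages, Cma1 (2.74) in young and Gzmc in old mice. Mcpt1, Mcpt2, Mcpt4 and Gzme were not called, and these and Gzmc were listed at 0 in some libraries. Lpo, the peroxidase gene next to Mpo, was not called (-0.06 and -0.33).

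Most of the nearest genes on the chromosome were not called between the sorts. Of 23 neighbouring protein-coding genes in the table, 2 rose (R3hdm4 and Mcpt8) and 1 fell (Ms4a6d) in young mice, against 1.43% and 0.243% of all genes. In old mice 5 rose (R3hdm4, Mcpt8, Epx, Ms4a2 and Supt4a) and 2 fell (Ms4a6d and Gzmg), against 4.74% and 8.23% of genes. With the pool as a block 5 fell, against 47.2% of genes. Cfd, the next gene after Elane, was at 1.56 to 11.7 TPM in all libraries with differences of -0.02 and -0.95, and was not called. R3hdm4, which lies beyond Cfd and Med16, differed by 1.71 in young and 1.84 in old mice and rose with age in Aβ42- cells (0.69).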

How the data were processed

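Bulk polyA RNA of 16 libraries was sequenced with single reads of 85 bases from directional libraries. According to their methods, the authors trimmed the reads (Trim Galore 0.4.2, cutadapt 1.9.1), aligned them to mm10 with STAR 2.5.2a, removed duplicate reads with Picard 1.89, counted them over RefSeq genes and supplied TPM in the deposited table, with tool versions from the submitters' processing notes. Duplicate removal limits how many single reads a short, abundant transcript can keep, and its effect on these genes was not tested. Columns were matched to samples by their titles, and replicates are pools, so errors are SDs over 4 pools.

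From the TPM, limma 3.58.1 (R 4.3.3) was fitted to log2(TPM + 1), with a trend of the variance on the mean, for genes that reached 1 TPM in 4 or more libraries of the comparison; tests were two-sided at a threshold of 0.05 after Benjamini-Hochberg adjustment over all genes tested. The tests were old against young in each sort, Aβ42- against Aβ42+ at each age and the interaction. The main fits of the sorts and of the interaction did not use the pairing of sorts within a pool. That pairing enters only where the pool or replicate number is given as a block. All 5 members passed the filter in every comparison. No count test was run, since TPM are not counts. Exact permutation tests compared 4 against 4 values of single genes, and 10 such tests between the ages and 5 on within-pool differences were run. The fits were also run on simulated data with independent noise for each gene and library. Those data hold neither a shared background level nor pools, so they cannot show how these features affect the calls. By their titles, libraries of 1 age with the same number come from 1 pool, whereas young and old pools share only a number. Residuals of same-numbered libraries correlated across genes at 0.41 to 0.63 for numbers 1 and 3 and at -0.06 to 0.06 for numbers 2 and 4, in comparisons of sorts and of ages alike.

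The 5 members, the 16 lists (124 genes, all in the table) and the promoter motifs were chosen with earlier results of these data known. Genes could be named if they were members, partners, transcription factors or paralogues, one of the first 2 or the 3 most abundant genes of another list, one of 3 protein-coding RefSeq neighbours on each side of a member, or among the 10 genes with the highest correlation to the mean z score of the members. Some genes of the lists are not reported here. Fcnb, Mmp9, Ly6g, Fcer1a, Fn1 and Vcan were named after their values were seen. Promoters are the 250 bases before the gene start from RefSeq (GRCm38.p6), and exon counts are from GENCODE. The alternatives were a pseudocount of 0.1 in place of 1, no filter, median-of-ratios factors, subtraction of the background level, the replicate number as a block, all 16 libraries in 1 fit, and each library left out in turn. Leaving out libraries from the ratios of group means was added after seeing the data. A planned correlation of the members over both ages is not given, since the ages differ in level.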

Additional observations from a re-analysis of the deposited data

Results flagged for a closer look

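Among 30 groups of 4 values tested for a library far from the others (the TPM of the 5 genes in each group and their within-pool differences at each age), 2 passed Dixon's 95% critical value, where chance gives about 1 in 20, and both concern Ms4a3. In old Aβ42+ cells pool 1 was at 75.9 TPM and the other 3 pools at 22.8 to 24.4 TPM, and the gap was 0.969 of the range of the group. In young Aβ42- cells pool 1 was at 161 TPM and the other 3 pools at 99.6 to 103 TPM, a gap of 0.952 of the range.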

How the results depend on the processing

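Calls between the sorts in old mice and between the ages in Aβ42- cells depended on the processing and on single libraries. In old mice 4206 genes differed between the sorts, 2592 with a pseudocount of 0.1, 2297 with the background level subtracted and 7118 with all 16 libraries in 1 fit. Background subtraction also turned the split, from 1536 higher and 2670 lower in Aβ42- cells to 1390 and 907, and it moved the median log2 difference of all genes from -0.89 to 0.14, and between the ages from -0.56 to 0.06 in Aβ42- and from 0.38 to 0.02 in Aβ42+ cells. Between the ages in Aβ42- cells 687 genes were called, 424 with a pseudocount of 0.1, 423 without a filter, 1468 after median-of-ratios scaling and 1654 with the background level subtracted. Of the 5 members, 1 was called there, 3 after median-of-ratios scaling, 5 with the background level subtracted and 0 with all 16 libraries. In Aβ42+ cells the count of 9 genes between the ages became 5 with the background level subtracted and 30 with all 16 libraries. The interaction had 4 calls, 0 after median-of-ratios scaling (limma, with 6939 genes at an unadjusted p under 0.05) and 2 with the background level subtracted. Of 10 exact tests between the ages 4 passed, and 8 after median-of-ratios scaling. The causes were not tested.

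With the replicate number as a block, which pairs the sorts of a pool, 18776 genes were called between the sorts in old mice and 12733 in the interaction. The block called 3893 genes between the ages in Aβ42- cells (1795 higher, 2098 lower) with 3 members among them, and 3 genes in Aβ42+ cells, where young and old pools only share a number. It changed the call of no member in Aβ42+ cells or in the interaction.

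With 1 library left out, 70 to 17621 genes were called between the sorts in old and 318 to 630 in young mice, 0 to 13328 between the ages in Aβ42- cells, 0 to 44 in Aβ42+ cells and 0 to 12 in the interaction, and limma fits without calls had 2061 to 10573 genes at an unadjusted p under 0.05. Members called between the ages in Aβ42- cells ranged from 0 to 5. The median within-pool log2 difference of the members was 3.71 to 4.13 in young and 2.74 to 3.37 in old mice with a pool left out. The interaction of Ms4a3 was -0.24 and ranged from -0.40 to 0.17, turning positive without old Aβ42+ replicate 1 (0.17) or old Aβ42- replicate 3 (0.02). Exact tests with a library left out were not run, since 3 against 4 values cannot pass the threshold. The unknown depth of the libraries limits what can be said of values near the background level.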
